A study of Mus musculus with 4 samples.

Results

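The Rtl1 antisense miRNAs are the products of 5 hairpins, Mir127, Mir136, Mir431, Mir433 and Mir434, that lie on the strand opposite the protein-coding gene Rtl1. The 5 hairpins, of 2202 annotated in the mouse, were chosen by name because they are encoded antisense to Rtl1, and Rtl1 itself was added as a transcript. Small RNA had been sequenced from fetal liver of mice carrying catalytic dead Ago2 (Ago2 CD) and of wildtype mice, with 2 libraries per genotype. All 4 libraries came from frozen, dissected tissue, and the labels give neither the age of the fetuses nor the allele of the mutation. The series calls the libraries of a genotype biological replicates but does not say which animals they came from, so the p-values below measure the spread between these libraries. A value for a liver also cannot tell fewer cells of a type from less RNA per cell.

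Rtl1 is a retrotransposon-derived gene that is expressed from the paternal chromosome and is required for the fetal capillaries of the mouse placenta. Its antisense transcript is expressed from the maternal chromosome and is processed into miRNAs that pair with the Rtl1 mRNA over their whole length. Full pairing is the arrangement in which Ago2, the Argonaute protein that holds catalytic activity, can cut a target between the bases opposite guide positions 10 and 11, and cutting of Rtl1 at these sites is known from mouse tissue. In Ago2 CD this cutting activity is lost while the protein can still bind miRNAs. The comparison of Ago2 CD with wildtype therefore addresses both the miRNAs, their arms and ends, and fragments of their fully paired target.

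Rtl1 lies on the minus strand of chromosome 12 from 109589193 to 109600330 (GRCm38), and its annotated transcript of 6358 nt has 2 exons and a coding sequence at transcript positions 148 to 5382. Each of the 5 hairpins lies on the plus strand inside coding exon 2 and is complementary to Rtl1 along its full length. In the direction of Rtl1 transcription they are Mir136 (109595327 to 109595388), Mir434 (109594506 to 109594599), Mir127 (109592846 to 109592915), Mir433 (109591715 to 109591838) and Mir431 (109590447 to 109590537). A sixth hairpin antisense to Rtl1, Mir432 (109594956 to 109595030), had 0 reads in each of the 4 libraries. Mir3071 (109595318 to 109595397) lies on the minus strand opposite Mir136, so its reads have the sense of Rtl1.

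The 10 mature sequences are given from RefSeq (GRCm38.p6) because the results turn on their ends as well as on their amounts. All 10 matched by miRNA name and were found in the GENCODE hairpins. Capitals mark the seed, bases 2 to 8, through which a miRNA recognises most of its targets.
miR-136-5p: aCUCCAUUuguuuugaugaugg
miR-136-3p: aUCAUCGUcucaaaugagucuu
miR-434-5p: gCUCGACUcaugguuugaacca
miR-434-3p: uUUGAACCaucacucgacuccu
miR-127-5p: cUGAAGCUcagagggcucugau
miR-127-3p: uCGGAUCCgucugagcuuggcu
miR-433-5p: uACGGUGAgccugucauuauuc
miR-433-3p: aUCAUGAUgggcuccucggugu
miR-431-5p: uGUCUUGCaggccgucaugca
miR-431-3p: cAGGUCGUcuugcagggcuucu
No seed was shared among the 10, and none was found in another RefSeq mouse miRNA, so these arms do not form a seed family. Each of the 10 had a complement without mismatch in the Rtl1 coding sequence. For miR-127-3p, whose loss from the maternal chromosome is known to raise Rtl1 in the mouse placenta, the site is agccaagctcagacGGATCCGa at transcript positions 2642 to 2663, where capitals mark the bases opposite the seed.

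The libraries held 21875540 and 15238066 reads in Ago2 CD replicates 1 and 2, against 15841697 and 13138065 reads in wildtype replicates 1 and 2. Deposited reads reached 46 nt in 1 library of each genotype (replicate 1 of Ago2 CD, replicate 2 of wildtype) and 50 nt in the other 2, and values within each such pair are given beside the pooled log2 differences of arms and arm ratios. Hepatocyte miRNAs (Mir122, Mir192 and Mir194) summed to 75385 and 35658 counts per 1000000 (CPM) in Ago2 CD and to 26207 and 58852 CPM in wildtype, and the erythroid set (Mir451a, Mir144 and Mir486) to 248465 and 332655 CPM in Ago2 CD and 1123734 and 585609 CPM in wildtype. Both marker sets of fetal liver were thus present in every library. Of the 6 erythroid arms tested, 1 was called higher and 1 lower in Ago2 CD, where 2 of all 582 arms were called. The erythroid sum therefore does not stand for each of its arms, nor for a number of cells. CPM here use library sizes scaled by the TMM method, with factors of 1.38 and 1.22 in Ago2 CD and 0.616 and 0.965 in wildtype, which is why a sum can pass 1000000. Of the marker sets for other cells, muscle (6 of 6 hairpins with reads) stood at 13.3 and 35.2 CPM in Ago2 CD and at 716 and 31.6 CPM in wildtype, and neuron (6 of 6) at 315 and 16.5 CPM in Ago2 CD and at 13.1 and 269 CPM in wildtype. Endothelial Mir126a stood at 6237 and 7519 CPM in Ago2 CD and 8264 and 6188 CPM in wildtype, and the mesenchymal set at 3606 and 3322 CPM in Ago2 CD and 4058 and 3853 CPM in wildtype. The hepatocyte and neuron sums were higher in both 46 nt libraries than in both 50 nt libraries, and the muscle and endothelial sums were lower. The part of read length in these sums was not tested. Nor was the part of cell composition in the values below.

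The 5 hairpins were well expressed in fetal liver, and no arm differed between the genotypes past the threshold of the test. Reads of 18 to 27 nt that matched them numbered 374732 and 170043 in Ago2 CD and 138110 and 178144 in wildtype, or 2.60% and 2.18% of all miRNA arm reads in Ago2 CD and 1.43% and 1.94% in wildtype. On the TMM scale their sum was 18808 and 17882 CPM in Ago2 CD, below both wildtype values of 23136 and 20123 CPM. The share of arm reads and the TMM-scaled level thus ran in opposite directions, beside an erythroid sum that was larger in both wildtype libraries. Ranked among the 582 arms tested, by mean level, miR-136-5p stood at 16 and miR-433-5p at 240, with the other 8 arms between them.

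The 5p arm of mir-136, the hairpin nearest the Rtl1 start codon, was the most abundant of the 10. miR-136-5p had 8137 and 7022 CPM in Ago2 CD, against 10507 and 7770 CPM in wildtype. The groups overlapped, because Ago2 CD replicate 1 lay above wildtype replicate 2. Its partner miR-136-3p had 2517 and 1730 CPM in Ago2 CD, against 2920 and 2897 CPM in wildtype, and both mutant libraries were lower on this scale. Of these 2 arms, miR-136-3p had the larger log2 difference (Ago2 CD over wildtype), at -0.45 (SE 0.31), with -0.20 within the 46 nt libraries and -0.75 within the 50 nt libraries. miR-136-5p had -0.27 (SE 0.31), with 0.067 within the 46 nt and -0.58 within the 50 nt libraries.

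On the TMM scale both arms of mir-434 were lower in each Ago2 CD library than in each wildtype library. miR-434-5p had 507 and 510 CPM in Ago2 CD, against 951 and 984 CPM in wildtype. The replicates of a genotype lay close together, and the gap between the genotypes was wider than either spread. The log2 difference was -0.93 (SE 0.25, unadjusted p = 0.0180), with -0.96 within the 46 nt libraries and -0.90 within the 50 nt libraries. In edgeR's quasi-likelihood test it did not pass after Benjamini-Hochberg adjustment over all 582 arms (adjusted p = 0.996). The other arm, miR-434-3p, had 2117 and 2445 CPM in Ago2 CD, against 3265 and 3087 CPM in wildtype, a log2 difference of -0.48 (SE 0.26), with -0.54 and -0.42 within the 46 nt and the 50 nt libraries.

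At mir-127, whose product is the one named above for the placenta, miR-127-3p was the dominant arm. It had 2622 and 3554 CPM in Ago2 CD, against 3632 and 2903 CPM in wildtype. These ranges overlapped, and the log2 difference was -0.08 (SE 0.31), with -0.15 within the 46 nt and -0.031 within the 50 nt libraries. miR-127-5p had 226.3 and 226.2 CPM in Ago2 CD, against 158 and 181 CPM in wildtype, higher in both mutant libraries with a log2 difference of 0.42 (SE 0.28) that was 0.32 within the 46 nt and 0.52 within the 50 nt libraries.

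At mir-433 both arms, each summed over its read forms, were higher in each Ago2 CD library on the TMM scale. miR-433-3p had 937 and 742 CPM in Ago2 CD, against 432 and 711 CPM in wildtype, where wildtype replicate 2 came close to the lower mutant library. Its log2 difference was 0.55 (SE 0.37), with 0.40 within the 46 nt and 0.78 within the 50 nt libraries. The minor arm miR-433-5p had 49.99 and 96.96 CPM in Ago2 CD, against 22.6 and 32.3 CPM in wildtype. This was the largest log2 difference of the 10 arms, at 1.42 (SE 0.48, unadjusted p = 0.0374, edgeR's adjusted p = 0.996), and it was uneven, with 0.63 within the 46 nt libraries and 2.09 within the 50 nt libraries. Its reads are the fewest of the 10, with 996 and 922 in Ago2 CD and 135 and 286 in wildtype. The difference was uneven between read forms. The mature form of 22 nt had 449 and 630 reads in Ago2 CD and 118 and 206 in wildtype. The most frequent form of 21 nt had 417 and 232 reads in Ago2 CD and 3 and 45 in wildtype.

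mir-431, the hairpin nearest the end of the Rtl1 coding sequence, gives mainly its 5p arm, which in mouse muscle stem cells is known to act on Pax7. miR-431-5p had 1616 and 1431 CPM in Ago2 CD, against 1190 and 1515 CPM in wildtype, with overlapping groups and a log2 difference of 0.17 (SE 0.28) that was 0.092 within the 46 nt and 0.27 within the 50 nt libraries. The minor arm miR-431-3p had 77.8 and 125.7 CPM in Ago2 CD, against 58.1 and 42.7 CPM in wildtype. Both mutant libraries were higher, with a log2 difference of 1.01 (SE 0.40, edgeR's adjusted p = 0.996) that was 0.86 within the 46 nt libraries and 1.11 within the 50 nt libraries.

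**Figure D1:**
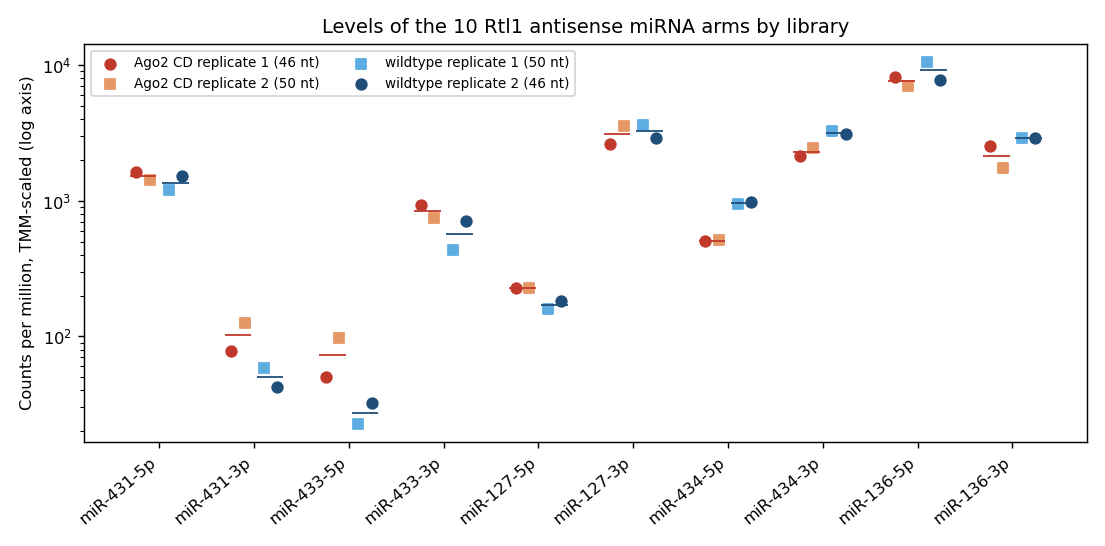
TMM-scaled CPM (log axis) of the 10 arms, each point 1 library and each bar the mean of a genotype, with Ago2 CD left of wildtype. The points span from miR-136-5p near 10507 CPM to miR-433-5p near 22.6 CPM, and the gap between genotypes is clearest for miR-434-5p, at 507 and 510 CPM in Ago2 CD and 951 and 984 CPM in wildtype.

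Counted together, 0 of the 10 arms passed the threshold, where 0.344% of all arms tested did (2 of 582), and 2 of the 10 had an unadjusted p under 0.05, where 18 of 582 did. DESeq2 called 0 of the 10 and 0.474% of the 1478 arms with any read. Reads of 20 to 24 nt gave 0 of the 10 (0.184% of all arms tested on them), and reads of 16 nt or more 0 (0.331%). The log2 difference was positive for 5 arms and negative for 5, with a median of 0.04, equal to the median of 0.04 over all arms tested. Both Ago2 CD libraries lay above both wildtype libraries for 4 arms, where 15.8% of all arms did so, and below them for 3 arms, where 13.9% did. These directions depend on the scaling for 4 arms, since with reads on arms as the library size, which moves the median of all arms to 0.74, miR-127-3p, miR-136-5p, miR-136-3p and miR-434-3p had positive differences. On that scale miR-434-5p had the only negative difference of the 10, at -0.22. For 9 of the 10 arms the sign was the same within the 46 nt pair and within the 50 nt pair, the exception being miR-136-5p at 0.07 and -0.58. The share of all 582 arms with equal signs was not counted, so no conclusion is drawn from this.

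**Figure D2:**
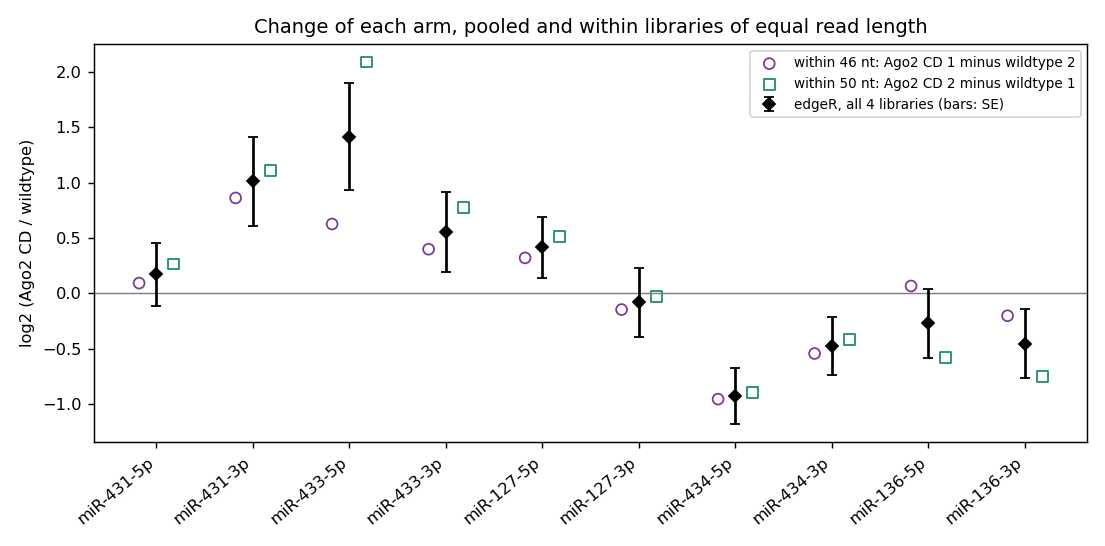
log2 difference (Ago2 CD over wildtype) of each arm, with diamonds for the edgeR estimate over 4 libraries (bars are SE), open circles for the pair of 46 nt libraries and open squares for the pair of 50 nt libraries. The pair values of miR-434-5p (-0.96 and -0.90) lie close to each other below 0, and those of miR-433-5p (0.63 and 2.09) lie apart above it.

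With read length as a term in the edgeR model, which leaves 1 residual degree of freedom, 16 of the 582 arms passed (2.75%), and 2 of these belong to the Rtl1 antisense hairpins. miR-434-5p was lower in Ago2 CD (log2 difference -0.93, SE 0.12, adjusted p = 0.0130), and miR-431-3p was higher (0.99, SE 0.19, adjusted p = 0.0497). Neither call held when reads of 16 and 17 nt were counted with that term (edgeR's adjusted p = 0.0938 for miR-434-5p and 0.174 for miR-431-3p, 0.497% of all arms called), nor when tailed reads were counted with it (0.134 and 0.212, 0.155% called). In DESeq2 with the same term 4 of the 10 arms passed, where 1.96% of the 1478 arms with any read did. DESeq2 adjusted only over arms that passed its own low-count filter, so 1.96% understates the share among those arms. Their number was not recorded, so no excess is read from the 4. The 4 arms were miR-434-5p, lower in Ago2 CD (DESeq2's adjusted p = 0.000110), and miR-431-3p (0.000534), miR-433-5p (0.000802) and miR-433-3p (0.0212), higher in Ago2 CD.

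The 3p to 5p ratio of a hairpin is taken within a library and needs no library size. The 3p arm was the larger at mir-127, with 92.1% and 94.0% of arm reads in Ago2 CD and 95.8% and 94.1% in wildtype. It was also the larger at mir-433, with 94.9% and 88.4% in Ago2 CD and 95.03% and 95.7% in wildtype. At both hairpins the 2 mutant libraries were lower than the 2 wildtype libraries, by a narrow margin in the closest pair. At mir-434 the 3p arm held 80.7% and 82.7% in Ago2 CD and 77.4% and 75.8% in wildtype, and both mutant libraries were higher. The 5p arm dominated at mir-136, where the 3p arm held 23.6% and 19.8% in Ago2 CD and 21.7% and 27.2% in wildtype, with overlapping groups. It dominated most at mir-431, where the 3p arm held 4.59% and 8.07% in Ago2 CD and 4.66% and 2.74% in wildtype, again with overlap. The share of the 288 tested hairpins without overlap was not counted, so the separations at mir-127, mir-433 and mir-434 are description only.

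None of the 5 ratios passed in limma, where 0.694% of 288 hairpins did (2 of 288, and 13 at an unadjusted p under 0.05). The log2 differences of the 3p over 5p ratio were 0.81 (SE 0.53) for mir-431, 0.45 (SE 0.28) for mir-434, -0.22 (SE 0.34) for mir-136, -0.51 (SE 0.38) for mir-127 and -0.77 (SE 0.58) for mir-433, with limma's adjusted p at 0.966 or above. With tailed reads counted 0 of the 5 passed and 0.347% of hairpins did. With read length as a term 0 of 288 hairpins passed and the lowest adjusted p of the 5 was 0.295. Within the 46 nt and the 50 nt libraries, the differences were 0.77 and 0.85 for mir-431, 0.41 and 0.48 for mir-434, -0.27 and -0.17 for mir-136, and -0.47 and -0.55 for mir-127. At mir-433 the pairs were unequal, with -0.23 within the 46 nt and -1.32 within the 50 nt libraries, and the pooled value of -0.77 became -1.42 without Ago2 CD replicate 1 and -0.13 without Ago2 CD replicate 2.

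**Figure D3:**
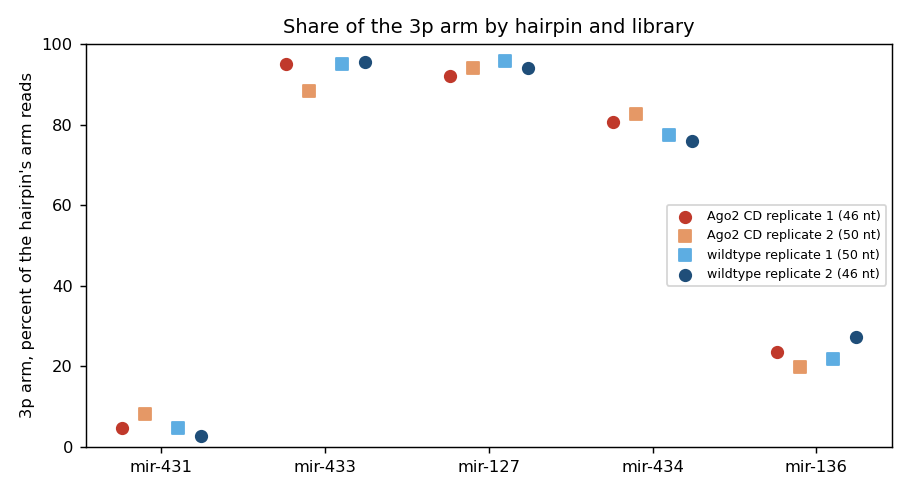
Share of the 3p arm in percent of a hairpin's arm reads, each point 1 library, Ago2 CD left of wildtype. In every library the 3p arm is the minor arm of mir-431 (2.74% to 8.07%) and mir-136 (19.8% to 27.2%) and the major arm of the other 3, up to 95.8% at mir-127.

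At miR-136-5p, miR-433-3p, miR-136-3p and miR-127-3p the ends of the reads separated the libraries by read length and not by genotype. The most frequent read of miR-136-5p in the 46 nt libraries was the mature sequence, actccatttgttttgatgaTGG, with 86293 reads in Ago2 CD replicate 1 and 38505 in wildtype replicate 2. In the 50 nt libraries the same sequence had 0 reads in Ago2 CD replicate 2 and 1 in wildtype replicate 1. There the most frequent read was actccatttgttttgatga, which lacks the last 3 bases, with 59906 reads in Ago2 CD and 56239 in wildtype, against 295 and 130 reads in the 46 nt libraries of Ago2 CD and wildtype. The mean length of miR-136-5p reads was accordingly 22.1 and 19.2 nt in Ago2 CD and 19.2 and 22.1 nt in wildtype replicates 1 and 2.

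The same split was seen at the 5′ end of 3p arms that begin with the bases ATC. The mature miR-433-3p, ATCatgatgggctcctcggtgt, had 13902 reads in Ago2 CD replicate 1 and 4605 in wildtype replicate 2, both 46 nt libraries, and 3 and 2 reads in the 50 nt libraries of Ago2 CD and wildtype. The form without those bases, atgatgggctcctcggtgt, had 5026 reads in Ago2 CD replicate 2 and 1865 in wildtype replicate 1, against 245 and 76 reads in the 46 nt libraries of Ago2 CD and wildtype. A read that starts 3 bases later has another seed. The RefSeq 5′ end was thus found in 87.9% and 0.0425% of miR-433-3p reads in Ago2 CD and in 0.0775% and 88.3% in wildtype. For miR-136-3p, ATCatcgtctcaaatgagtct in its most frequent form of this start, the shares were 47.5% and 0.146% in Ago2 CD and 0.172% and 46.2% in wildtype.

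miR-127-3p shows the split within 1 arm. Its form tcggatccgtctgagctTGG had 8169 and 0 reads in Ago2 CD and 0 and 4077 reads in wildtype, while tcggatccgtctgagct, shorter by those 3 bases, had 8 and 7823 reads in Ago2 CD and 5628 and 11 in wildtype. The full mature form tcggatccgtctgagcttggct, which ends otherwise, was the most frequent in every library, with 25336 and 21586 reads in Ago2 CD and 14092 and 12211 in wildtype. The 17 nt form falls under the minimum of 18 nt for an arm and is not in the CPM above.

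**Figure D4:**
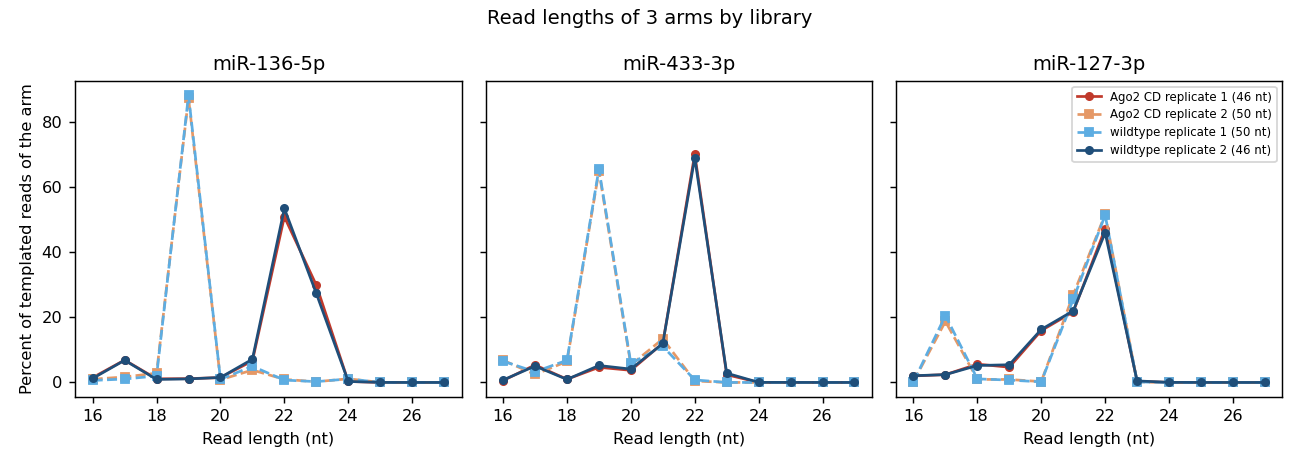
Read lengths in nt (x axis) as percent of the templated reads of miR-136-5p, miR-433-3p and miR-127-3p, 1 line per library, with solid lines for 46 nt and dashed lines for 50 nt libraries. Lines of equal read length run together whatever the genotype, with miR-136-5p peaking at 22 nt in both 46 nt libraries and at 19 nt in both 50 nt libraries.

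The split was not particular to these 5 hairpins. Of all reads on hairpins, those ending in TGG numbered 535198 and 4 in Ago2 CD and 6 and 245708 in wildtype, and those starting with ATC numbered 385146 and 608 in Ago2 CD and 449 and 163381 in wildtype. On the 5 hairpins, reads ending in TGG numbered 106950 and 0 in Ago2 CD and 1 and 47503 in wildtype. The letters TGG open the 3′ adapter of the library kit and ATC closes its 5′ adapter, which is background knowledge, and the part of adapter removal in these ends was not tested. Reads of 16 and 17 nt on the 5 hairpins numbered 20638 and 14728 in Ago2 CD and 10344 and 8931 in wildtype.

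The other 8 arms varied less between libraries in their 5′ end. Among these 8, miR-127-3p varied most. The RefSeq 5′ end held 88.7% and 98.3% of its reads in Ago2 CD and 98.5% and 89.0% in wildtype. It held 97.5% and 97.7% of miR-433-5p reads in Ago2 CD and 98.5% and 97.9% in wildtype, and 95.2% and 99.03% of miR-431-5p reads in Ago2 CD and 99.3% and 95.2% in wildtype. A pair of minor arms had their most frequent 5′ end away from the RefSeq one in the libraries summed. miR-127-5p began most often 2 bases later, as gaagctcagagggctctgattc, with 1157 and 655 reads in Ago2 CD and 252 and 459 in wildtype. miR-431-3p began most often 3 bases earlier, as ttgcaggtcgtcttgcagggcttc, with 248 and 313 reads in Ago2 CD and 69 and 46 in wildtype. The RefSeq 5′ end held 35.8% and 34.7% of miR-127-5p reads in Ago2 CD and 32.9% and 32.1% in wildtype, and 23.3% and 23.3% of miR-431-3p reads in Ago2 CD and 19.9% and 19.0% in wildtype.

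Tests of ends and lengths covered 9 of the 10 arms, since miR-433-5p had under 200 reads in 1 library. The lengths of that untested arm were not split by read length alone. Its reads of 21 nt made up 42.0% and 26.0% of its templated reads in Ago2 CD and 2.94% and 17.3% in wildtype. They numbered 423 and 241 in Ago2 CD and 4 and 50 in wildtype. The 5′ end test took as its base the most frequent 5′ end over the 4 libraries, which for miR-127-5p and miR-431-3p is not the RefSeq one. For the share of reads with any other 5′ end than that, 0 of the 9 passed in limma and 0.0% of 253 arms did (2 at an unadjusted p under 0.05), and with read length as a term 0 of 253 passed (26 unadjusted). For mean length, 0 of the 9 passed, where 0.395% of 253 arms did, and with read length as a term 0.791% did, again with none of the 9 among them. The log2 difference in the share of other 5′ ends lay between -0.35 (SE 0.28) for miR-431-3p and 0.51 (SE 7.20) for miR-433-3p, the wide error of which holds the split by read length.

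Tails, that is 1 to 3 bases at the 3′ end that the locus does not encode, were most frequent on miR-127-3p. They made up 35.1% and 45.2% of its reads in Ago2 CD and 44.1% and 35.9% in wildtype, where the 2 higher values belong to the 50 nt libraries. miR-434-3p had 3.91% and 17.1% tailed reads in Ago2 CD and 16.9% and 3.90% in wildtype, with the same order. miR-431-5p had the opposite order, with 30.4% and 11.5% in Ago2 CD and 14.2% and 30.2% in wildtype. Its frequent tailed read tgtcttgcaggccgtcatgcaA, in which the capital marks the added base, had 7164 and 117 reads in Ago2 CD and 82 and 2873 in wildtype. Over the 5 hairpins, a single added C made up 0.0694% and 9.10% of reads in Ago2 CD and 7.15% and 0.0521% in wildtype, so C tails too followed read length.

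For tails 0 of the 9 arms tested passed in limma, and 0.0% of 276 arms did, with 0 at an unadjusted p under 0.05. With read length as a term 1.09% of the 276 passed and none was of the 9, with limma's adjusted p at 0.986 or above. Within libraries of equal read length the tailed share of miR-127-3p differed by -0.05 (46 nt) and 0.06 (50 nt) on the log2 scale, and that of miR-434-3p by 0.0012 and 0.020. The largest such value within a pair was 0.36, for miR-434-5p in the 46 nt libraries, with 3.98% tailed reads in Ago2 CD and 3.14% in wildtype.

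Fragments of Rtl1 itself were at the edge of detection. Sense reads of 20 nt or more in the transcript numbered 23 and 11 in Ago2 CD and 4 and 10 in wildtype, but 20 and 4 of these in Ago2 CD and 1 and 8 in wildtype lay on the Mir3071 hairpin and cannot be told apart from its products. The remainder was 3 and 7 reads in Ago2 CD and 3 and 2 reads in wildtype, 15 distinct sequences with 1 read each. Of these, 2 and 5 in Ago2 CD and 3 and 2 in wildtype were assigned to Rtl1 alone, which was too few for the low-count filter of the test over all genes, where 0.0848% of 2359 genes passed. Per read assigned to a transcript the ratio of Ago2 CD to wildtype was 0.486, with an exact 95% interval of 0.133 to 1.94 from 7 reads against 5, which covers counting error only. No difference in Rtl1 fragments was detected, and the interval includes both lower and higher values in Ago2 CD.

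The expected place of a 3′ product of cutting is known for each arm, since its first base pairs with guide position 10. One sense read, of 23 nt in wildtype replicate 1, covered transcript positions 2654 to 2676 and so started at that position of the miR-127-3p site. No read of the other 14 began within 2 nt of such a position, the nearest being 3 nt away at the miR-434-5p site in Ago2 CD replicate 2. The positions for miR-136-5p (211) and miR-136-3p (176) lie inside Mir3071 (154 to 233). Reads on Mir3071 were set aside before this check, so it does not cover products of the miR-136 sites that lie within that hairpin. Reads overlapping 1 of the 5 hairpins numbered 0 and 2 in Ago2 CD and 1 and 1 in wildtype. A single read allows no comparison between the genotypes.

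**Figure D5:**
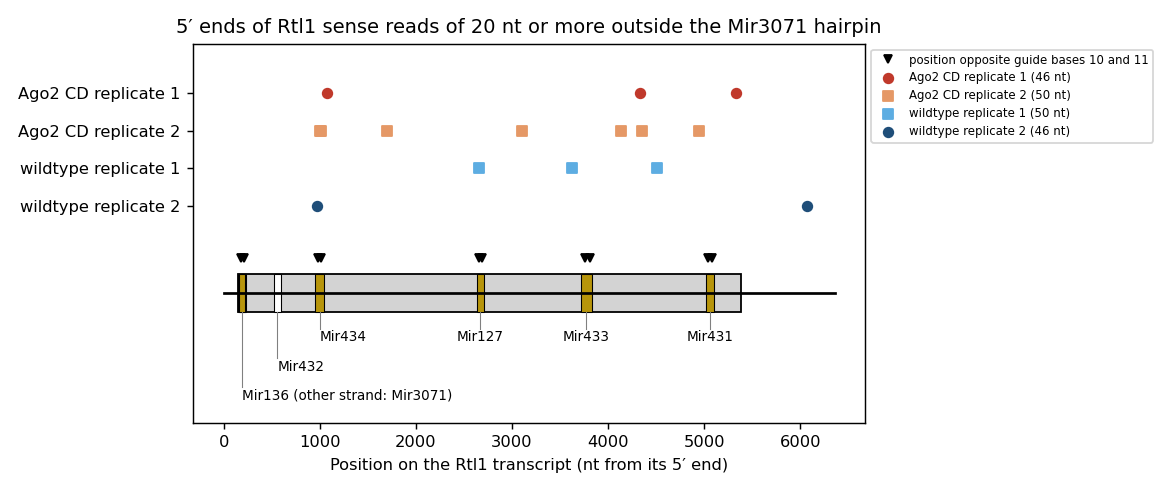
Start positions on the Rtl1 transcript (x axis, nt) of the 15 sense reads outside Mir3071, 1 row per library, Ago2 CD above wildtype. Reads on Mir3071, which holds the positions for both miR-136 arms, are not shown. Grey marks the coding sequence, gold the 5 hairpins on the opposite strand, white Mir432, and triangles the positions opposite guide bases 10 and 11; 1 read, in wildtype replicate 1, starts at a triangle, that of miR-127-3p.

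On the antisense strand, reads of 20 nt or more outside annotated hairpins numbered 178 and 157 in Ago2 CD and 121 and 66 in wildtype. Of these, 166 and 133 in Ago2 CD and 111 and 54 in wildtype ran past the 3′ end of the Mir136 hairpin, the most frequent being catcgtctcaaatgagtcttcA, where the capital marks the base beyond the annotated end, with 120 and 116 reads in Ago2 CD and 102 and 36 in wildtype. The other antisense reads, 12 and 24 in Ago2 CD and 10 and 12 in wildtype, were 44 distinct sequences. No read of 38 nt or more was found on the 5 hairpins, and reads of 28 to 37 nt were 6 and 0 in Ago2 CD and 0 and 3 in wildtype, all on Mir434.

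The imprinted region around Rtl1 holds many further miRNAs. Of 39 other hairpins listed from this region, 36 had reads and gave 67 tested arms, of which 0 passed, where 0.344% of all arms did. Both Ago2 CD libraries lay above both wildtype libraries for 11 of the 67 and below them for 14, where 15.8% and 13.9% of all arms did so, with a median log2 difference of -0.03. Their summed level was 61948 and 66224 CPM in Ago2 CD and 70285 and 61046 CPM in wildtype. Fragments of the maternal transcripts Meg3 (124 and 124 reads in Ago2 CD, 50 and 71 in wildtype) and Rian (175 and 121 in Ago2 CD, 53 and 86 in wildtype) were tested. On the TMM scale their log2 differences were -0.42 and -0.38 (edgeR's adjusted p = 0.862 and 0.880). Dlk1, the paternally expressed growth regulator of the region, had 72 and 100 reads in Ago2 CD and 24 and 29 in wildtype, with a log2 difference of 0.26 (adjusted p = 0.957). Mirg, at 6 and 8 reads in Ago2 CD and 4 and 2 in wildtype, and Dio3, with 0 reads in each library, could not be tested.

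The arms outside the 5 hairpins whose level over the 4 libraries was most like the sum of these 10 were miR-16-5p, miR-676-3p, the 5p arms of Gm25022 and Gm22243, and miR-15b-5p. Their root mean square difference of centred log2 CPM was 0.0601, 0.0753, 0.0763, 0.0774 and 0.0931, among 358 arms compared over 4 libraries. The same measure for the 10 arms themselves lay between 0.0971 for miR-136-5p and 0.911 for miR-433-5p.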

How the data were processed

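Small RNA reads of fetal liver were compared between Ago2 CD and wildtype, with 2 libraries each. The deposited files hold counts, the number of reads with each distinct sequence, with no normalization. The submitters' processing notes name cutadapt, which removes adapters; its settings and a genome build are not given in the sources used here. Repeated sequences were summed, and reads with an undetermined base (0.183% to 0.256%) were left out.

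Reads were matched without mismatch to the 2202 hairpins of GENCODE vM21. Reads of 18 to 27 nt were assigned to the 5p or 3p arm by where their middle lay relative to the hairpin midpoint. Near-identical arms were merged, and reads on several arms (0.00863% to 0.0290%) were left out. A read counted as tailed when it matched once its last 1, 2 or 3 bases were taken off and the Rtl1 locus did not encode those bases. Other reads of 20 nt or more were matched to transcripts.

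Arm and fragment counts were tested over all features in edgeR 4.0.16 (glmQLFTest, TMM, filterByExpr). Arm ratios (at least 20 reads per library and 10 on the minor arm) and shares of tails, 5′ ends and lengths (at least 200 reads) went into limma 3.58.1 as log2 ratios after adding 0.5 reads to each side, lengths as means in nt. All tests were two-sided, and a call needed a p below 0.05 after Benjamini-Hochberg adjustment. The SE of edgeR is the log2 difference over the root of F. Alternatives were DESeq2 1.42.0, other library sizes, filters and read sizes, a block by replicate number, a term for read length, and leaving out each library; reads of 16 nt or more, and read length combined with other read definitions or DESeq2, were added after seeing the data. Scripts were tested on simulated data. Reads carry no molecular identifiers, so the interval covers counting error only. R 4.3.3 and Python 3.11.15 were used.

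The text names all arms of the 5 hairpins, Rtl1, Mir432 and Mir3071, and the 5 arms of at least 10 CPM most like the members' sum. The members, the marker lists and the list of imprinted neighbours were chosen with earlier results of these data known.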

Additional observations from a re-analysis of the deposited data

How the results depend on the processing

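The count of Rtl1 antisense arms past the threshold was 0 under the scalings, filters and read definitions tried without a read length term, 2 with it, 4 with it in DESeq2, and 0 with it when reads of 16 nt or more or tailed reads were counted. Over all arms the count was 2 of 582, against 12 without a filter, 7 in DESeq2, 1 with reads of 20 to 24 nt, 16 with the read length term, 3 with that term and reads of 16 nt or more, 1 with it and tailed reads, and 29 with it in DESeq2. Of the 288 ratios, 2 passed, against 1 with tailed reads and 0 with reads of 16 nt or more, the replicate block or the read length term. For tails the count was 0 of 276, against 3 with the read length term, and for mean length 1 of 253, against 2 with that term and 0 with the replicate block or with reads of 16 to 50 nt. With the replicate block 0 of the arms of the 5 hairpins passed in any test, and 3 of all 582 arms did. Libraries of equal number deviated in opposite directions (correlation -0.72 over arms), and those of equal read length in the same direction (0.72). With 2 libraries per genotype these are the same value with opposite signs. They cannot show whether the numbers also mark a pairing. The crossed pairing is the read length term above. Reads on arms as library size turned the log2 difference of miR-127-3p to 0.66, miR-136-5p to 0.50, miR-136-3p to 0.28 and miR-434-3p to 0.24. Counting only tails of 1 nt other than C turned the tail difference of miR-127-5p to -0.22, miR-127-3p to -0.064, miR-136-5p to -0.11, miR-433-3p to -0.034 and miR-434-3p to -0.18. The log2 ratio of Rtl1 fragments was -1.03, from 7 reads in Ago2 CD and 5 in wildtype. It became 0.073 with reads of 24 nt or more, which rests on still fewer reads. Without 1 library in turn the ratio from reads of 20 nt or more lay between -1.77 and -0.30.

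Leaving out each library in turn changed the sign of some differences, none past the threshold in any such fit. The lowest and highest differences were, for the level, miR-127-3p -0.30 to 0.13, miR-136-5p -0.44 to 0.017. The lowest and highest differences were, for the tailed share, miR-127-3p -0.30 to 0.31, miR-127-5p -0.067 to 0.16, miR-136-3p -0.76 to 0.91, miR-136-5p -0.14 to 0.26, miR-431-3p -0.31 to 0.39, miR-431-5p -1.04 to 0.71, miR-433-3p -0.43 to 0.68, miR-434-3p -1.16 to 1.18. The lowest and highest differences were, for the mean length (nt), miR-127-3p -0.27 to 0.28, miR-136-3p -0.32 to 0.026, miR-136-5p -1.49 to 1.49, miR-431-3p -0.28 to 0.40, miR-431-5p -0.22 to 0.17, miR-433-3p -1.15 to 1.20, miR-434-3p -0.18 to 0.090, miR-434-5p -0.087 to 0.24. The lowest and highest differences were, for the share of other 5′ ends, miR-127-3p -1.41 to 1.65, miR-136-3p -4.54 to 4.70, miR-136-5p -0.44 to 0.99, miR-431-5p -1.17 to 1.56, miR-433-3p -6.41 to 7.43, miR-434-3p -0.56 to 0.67, miR-434-5p -0.077 to 0.29. The lone library of a genotype is assumed to vary like the others.
The causes of these shifts were not tested. Depth and the short reads of small RNA libraries limit Rtl1, with 15 sense reads outside Mir3071. The 2 libraries per genotype limit every test.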
